A study of Mus musculus with 9 samples.

Results

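Integrins are the cell surface receptors that hold cells to their matrix, and collagens and laminins are proteins of that matrix. The genes described here are the 75 mouse genes whose symbol begins as an integrin alpha or beta gene, a collagen alpha chain gene or a laminin chain gene does, of 18193 genes with a probe set of a single symbol. They comprise 20 integrin genes, 42 collagen genes, 10 laminin genes and 3 genes of other proteins (Itgb1bp1, Itgb1bp2 and Itgb3bp), whose symbols the rule also matched and which are described apart. The rule uses no measured value.

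An integrin is a pair of an alpha and a beta chain, and the pair sets the ligand: beta 1 with alpha 3 or alpha 6 binds laminin, with alpha 2 or alpha 10 collagen, and with alpha 4 or alpha 5 fibronectin. Laminins are trimers of an alpha, a beta and a gamma chain and form the basement membrane together with the network of type IV collagen, whose commonest trimer is built from the products of Col4a1 and Col4a2. Normal pulmonary neuroendocrine cells sit on such a basement membrane at the base of the airway epithelium.

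RNA was measured on 9 Affymetrix arrays of cultured mouse cells, 3 of preSC and 2 of each group that had received a Myc retrovirus, namely N-Myc, C-Myc or L-Myc. The name preSC stands for preneoplastic neuroendocrine cells of the lung. They were taken from mice of mixed C57BL/6 and 129/Sv background after Adeno-Cre infection of the lung had deleted conditional alleles of Rb, p53 and p130. All 4 groups therefore share these deletions, the strain background and the serum-containing culture medium, and the labels say that no stroma was present. The labels name no empty-virus control and do not say whether a line was 1 clone or whether arrays came from separate cultures. Replicates are called biological in the design text, but the p-values measure only the spread between these arrays. The labels give polyA RNA for preSC and L-Myc and total RNA for C-Myc and N-Myc, whereas the extraction protocol gives total RNA for all.

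Several arrays differed widely from others of their group. The arrays L-Myc 2 and C-Myc 2 correlated at r = 0.996 over all probe sets and differed by more than 2-fold at 41 probe sets, whereas C-Myc 2 differed from C-Myc 1 at 3035 probe sets (r = 0.970) and L-Myc 2 from L-Myc 1 at 2252. C-Myc 1 in turn differed from N-Myc 1 at 194 probe sets and from N-Myc 2 at 182. The N-Myc arrays differed from each other at 13 probe sets (r = 0.996), the fewest of any pair, so their spread is that of near-identical arrays. Among preSC, arrays 1 and 2 differed at 47 probe sets and array 3 differed from them at 1909 and 1807. The Myc family probe sets separated the groups in part: a Mycl probe set was at 11.79 and 12.74 on the log2 scale in L-Myc and at no more than 8.52 on any other array, and a Mycn probe set was at 9.05 and 8.46 in N-Myc and at no more than 6.39 elsewhere. Myc was at 11.22 and 10.68 in C-Myc but also at 11.96 and 11.40 in N-Myc, and another Mycn probe set was at 12.92 to 13.54 in L-Myc and C-Myc and at 11.07 to 11.64 in N-Myc. Every preSC array differed from every transduced array in the mean of the 18S ribosomal RNA probe sets, 12.88 to 13.91 against 8.22 to 9.35, and in the Actb 5′ minus 3′ difference, -0.85 to -0.62 against -0.31 to -0.20. L-Myc has the same RNA label as preSC but lay with C-Myc and N-Myc in both measures. The part of these differences in the results was not tested.

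Itgb1, which encodes the integrin beta 1 chain shared by the widest set of alpha chains, was the member that rose in all 3 transduced groups, and Col8a1, which encodes a short-chain collagen of type VIII, was the member with the largest fall. The 250 bases before the RefSeq start of each are shown because these genes carry the main results and because Myc proteins are known to bind the sequence CACGTG. Both come from RefSeq on build GRCm38.p6, that of Itgb1 at chr8:128685404-128685653 on the plus strand and that of Col8a1 at chr16:57754738-57754987 on the minus strand. Each is written 5′ to 3′, and capitals mark GGGCGG or its reverse complement CCGCCC, the GC box.
Itgb1: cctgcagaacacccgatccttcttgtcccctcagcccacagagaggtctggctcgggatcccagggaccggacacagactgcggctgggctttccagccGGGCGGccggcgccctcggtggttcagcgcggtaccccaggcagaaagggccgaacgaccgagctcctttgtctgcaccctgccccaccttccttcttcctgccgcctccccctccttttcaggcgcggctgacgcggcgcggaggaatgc
Col8a1: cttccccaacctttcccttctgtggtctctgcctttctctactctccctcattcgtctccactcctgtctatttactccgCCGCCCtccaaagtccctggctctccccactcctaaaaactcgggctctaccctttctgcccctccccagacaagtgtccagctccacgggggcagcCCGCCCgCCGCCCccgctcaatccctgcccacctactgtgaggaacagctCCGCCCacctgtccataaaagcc

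The Itgb1 stretch held 1 GC box and the Col8a1 stretch held 4. Neither held CACGTG or the TATA box letters TATAAA on either strand. Of 32851 RefSeq promoters of the same length, 6.02% held CACGTG, 32.7% held GGGCGG and 12.4% held TATAAA. Of 61 promoters that belonged to 55 of the members, 0 held CACGTG, 29 held GGGCGG and 5 held TATAAA. The GC content was 68.0% for Itgb1 and 60.8% for Col8a1, and the median over all promoters was 52.4%. These matches describe the letters of the window only.

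A gene was tested if its brightest probe set was above the 40th percentile of its array (5.28 to 5.34) on at least 2 of the 9 arrays. That held for 44 members, namely 14 integrins, 21 collagens, 6 laminins and the 3 other proteins. Of these 44 members, 30 were above the percentile on all 9 arrays and 14 on fewer. The other 31 members did not pass, and their highest value on any array was 5.42. Among those not tested were the chains of the fibrillar collagens of connective tissue: Col1a1 lay between 4.78 and 4.97 on the 9 arrays, Col1a2 between 4.73 and 5.18, and Col3a1 between 3.52 and 3.79. The laminin beta chain genes Lamb1, at 3.96 to 4.38, and Lamb3, at 4.30 to 5.23, were also not tested, nor was Itgb4, at 4.72 to 5.35, which encodes the beta 4 chain that pairs with alpha 6 in hemidesmosomes.

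Markers of other cell types were set beside these levels. The mean of 11 fibroblast and stroma markers other than collagens was 5.05 to 5.49 on the 9 arrays, 4 of the 11 were not tested, and 0 of the 7 tested changed in any comparison with preSC. The mean of 8 endothelial markers was 4.66 to 4.98, and that of 7 leukocyte markers 5.10 to 5.31. The mean of 9 neuroendocrine markers was 10.22 to 10.59 on every array, a high level as the label of the cells states, but its members moved in both directions: 3 rose and 2 fell in L-Myc, and 3 rose and 5 fell in each of C-Myc and N-Myc, with median changes of -0.58, -0.87 and -1.09. The background for these and the stroma markers, in the order L-Myc, C-Myc, N-Myc, was 5.44%, 9.91% and 12.5% of all genes tested risen. It was 8.03%, 13.6% and 16.4% fallen, with median changes of -0.04, -0.05 and -0.03. The mean of 8 epithelial markers was 11.13 to 11.98 in preSC and 8.48 to 10.81 in the transduced arrays, lowest in L-Myc 1. In such bulk samples, fewer cells of a type and less RNA per cell cannot be told apart.

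**Figure D1:**
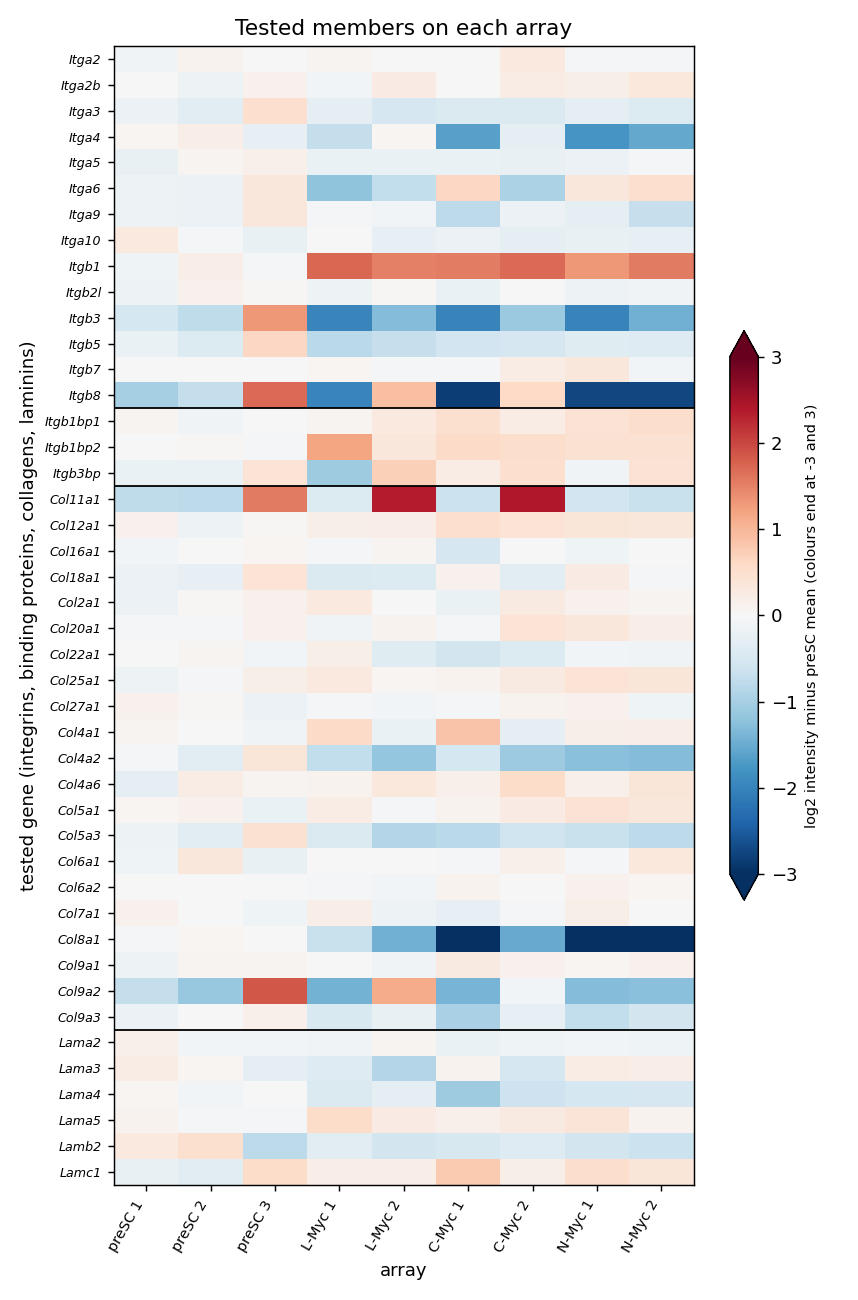
Log2 RMA intensity of the 44 tested members on each of the 9 arrays, minus the preSC mean of the gene, with integrins, binding proteins, collagens and laminins from top to bottom. Itgb1 is raised on all 6 transduced arrays, Col8a1 is lowest on C-Myc 1 and both N-Myc arrays, and Itgb8, Col11a1 and Col9a2 are highest on preSC 3, L-Myc 2 and C-Myc 2.

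Group means were compared with limma on the log2 values of all 9 arrays, and a change was called at a Benjamini-Hochberg adjusted p under 0.05 over the 12976 genes tested. The 3 comparisons with preSC share the same preSC arrays and are given side by side. In L-Myc, 2 of the 44 tested members were called, which is 4.55% of them, where 13.5% of all genes tested were called. C-Myc had 4 members called, or 9.09%, against a background of 23.5%. N-Myc had 6 members called, or 13.6%, against 28.8%. In no comparison did the members exceed the background share. The arrays of the groups did not overlap for 15 members in L-Myc (34.1%, background 49.5%), 17 in C-Myc (38.6%, background 52.4%) and 21 in N-Myc (47.7%, background 65.6%). At an unadjusted p under 0.05 the numbers were 8, 12 and 12 members, where 30.5%, 38.3% and 42.4% of all genes passed.

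The calls were divided between receptors and matrix. Of the 14 integrins, 1 rose in L-Myc, 1 rose in C-Myc, and in N-Myc 1 rose and 1 fell. Of the 27 collagens and laminins, 1 fell in L-Myc, 1 rose and 2 fell in C-Myc, and 3 fell in N-Myc, and 1 of those that fell in C-Myc and N-Myc, Lama4, was above the 40th percentile in preSC alone. Of all genes tested, 5.44% rose and 8.03% fell in L-Myc, 9.91% rose and 13.6% fell in C-Myc, and 12.5% rose and 16.4% fell in N-Myc. The median change of the 44 members was -0.07 in L-Myc, -0.10 in C-Myc and 0.04 in N-Myc on the log2 scale, beside -0.04, -0.05 and -0.03 over all genes tested. Centring the arrays on the genes tested moves the median of all genes by 0.14, 0.17 and 0.17, more than the medians of the members, so no direction was read from them. The same centring raised the share of higher genes among all called genes from 40.4% to 62% in L-Myc, from 42.2% to 63.4% in C-Myc and from 43.2% to 63.7% in N-Myc.

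**Figure D2:**
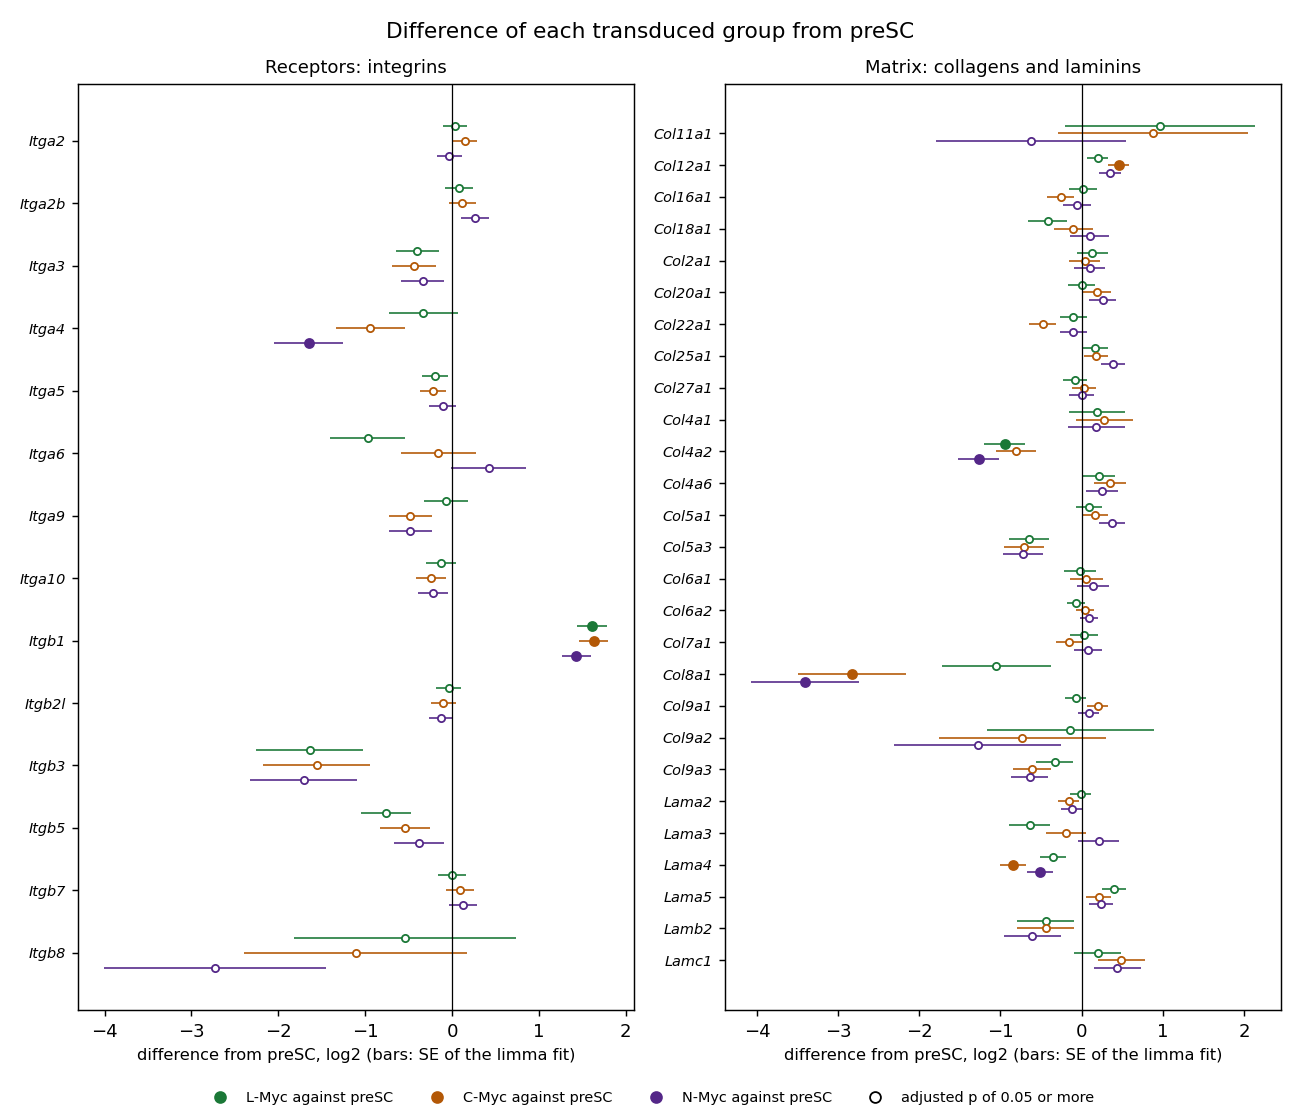
Difference of each transduced group from preSC on the log2 scale for the tested integrins (left) and the tested collagens and laminins (right), with the standard error of the limma fit as bars. Filled points have an adjusted p under 0.05. Itgb1 lies 1.43 to 1.63 above preSC in all 3 groups, and Col8a1 lies 2.83 and 3.41 below it in C-Myc and N-Myc.

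The receptor that changed most evenly was Itgb1. Its brightest probe set was at 9.43, 9.78 and 9.50 in preSC, 11.30 and 11.07 in L-Myc, 11.11 and 11.28 in C-Myc, with 10.86 and 11.13 in N-Myc. Every transduced array was above every preSC array, by more than the spread within any group. The mean was 9.57 ± 0.19 in preSC (SD, n = 3), 11.18 ± 0.17 in L-Myc, 11.20 ± 0.13 in C-Myc and 11.00 ± 0.19 in N-Myc (n = 2 each). The gene therefore rose by 1.61 in L-Myc (SE 0.17, 3.06-fold, limma adjusted p = 0.00437), by 1.63 in C-Myc (3.09-fold, adjusted p = 0.00314) and by 1.43 in N-Myc (2.69-fold, adjusted p = 0.0032). Of its 6 probe sets, the second rose by 1.18, 1.17 and 1.02 and the third by 1.23, 1.39 and 1.09 in the same order of groups. The other 3 were dim, at no more than 4.30, and were not tested. The Itgb1 calls held on leaving out any 1 of the 9 arrays.

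Among the alpha chains, Itga4 fell in N-Myc. It encodes alpha 4, which pairs with beta 1 or beta 7 and binds fibronectin and VCAM1. Its values were 9.13, 9.28 and 8.83 in preSC, 8.36 and 9.14 in L-Myc, 7.46 and 8.82 in C-Myc, with 7.32 and 7.54 in N-Myc. Both N-Myc arrays and C-Myc 1 were low, and C-Myc 2 was as high as the lowest preSC array. The fall was 1.65 in N-Myc (a change of -1.65, SE 0.40, limma adjusted p = 0.0227), and the changes in L-Myc and C-Myc were -0.33 (adjusted p = 0.627) and -0.94 (adjusted p = 0.131). The second probe set of Itga4 was 0.66 lower in N-Myc (a change of -0.66, adjusted p = 0.243 over all probe sets tested), and the third fell by 0.96 (adjusted p = 0.0198). The N-Myc call was lost without preSC 1, preSC 2 or either N-Myc array, with adjusted p of 0.0634 to 0.135. In a fit that leaves 1 array in a group, that array is assumed to vary like the other groups. On that assumption, without C-Myc 2 the change of Itga4 in C-Myc was -1.62 (adjusted p = 0.0146).

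Itga6 encodes alpha 6, the laminin-binding chain that pairs with beta 1 or beta 4. It was at 10.37, 10.35 and 10.87 in preSC, 9.33 and 9.79 in L-Myc, 11.16 and 9.57 in C-Myc, with 10.86 and 11.04 in N-Myc. The 2 L-Myc arrays and C-Myc 2 lay below all preSC arrays, and C-Myc 1 lay above them with N-Myc 2. None of the changes from preSC was called, at -0.97 in L-Myc (SE 0.43, limma adjusted p = 0.18), -0.16 in C-Myc (adjusted p = 0.813) and 0.42 in N-Myc (adjusted p = 0.489). The second probe set gave changes of -1.25, -0.11 and 0.40, none of them called. L-Myc was 1.39 lower than N-Myc (a difference of -1.39, SE 0.47), with an unadjusted p of 0.0204 and an adjusted p of 0.198 from limma. On leaving out either C-Myc array the change in L-Myc passed the test, with adjusted p of 0.03 and 0.0297.

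The other alpha chains of epithelial cells differed less. Itga3, which encodes the laminin-binding alpha 3 chain, was at 8.71, 8.54 and 9.39 in preSC and between 8.37 and 8.62 on the transduced arrays. Its changes in the same order of groups were -0.40, -0.44 and -0.34 (adjusted p from 0.236 to 0.326). Those of its second probe set were 0.01, 0.01 and 0.02, and the third was 0.56, 0.53 and 0.54 higher, with none called. Itga2, which encodes the collagen-binding alpha 2 chain, lay between 5.85 and 6.23 on all arrays, and Itga5, the fibronectin receptor alpha 5 chain gene, between 5.12 and 5.50. Neither was called in any comparison.

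**Figure D3:**
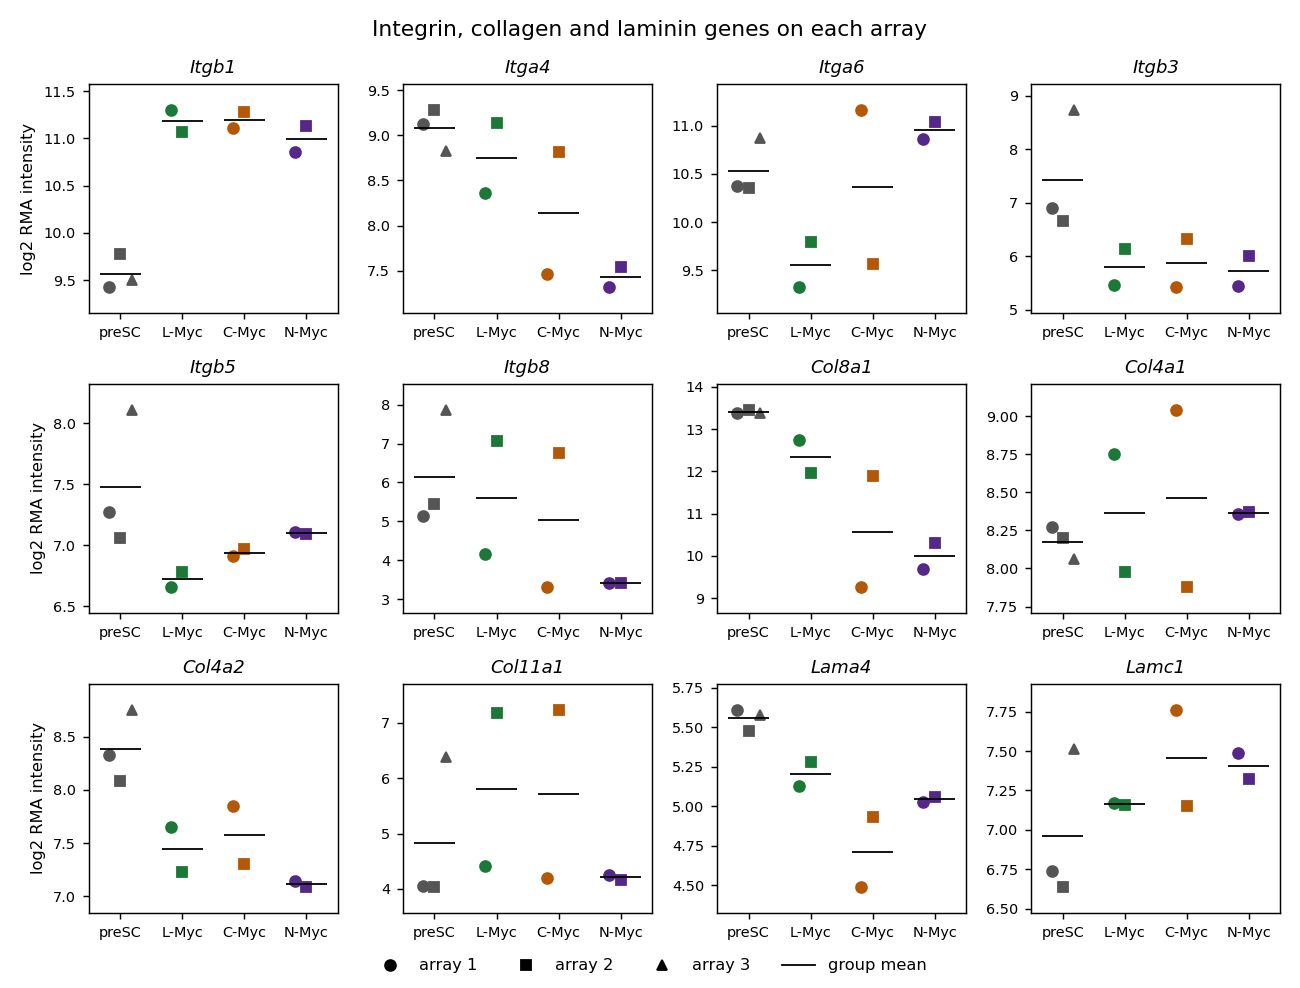
Log2 RMA intensity of 12 members on each array, with a line at each group mean and the array number given by the symbol. Itgb1 and Col4a2 separate preSC from all transduced arrays, while for Itgb8 and Col11a1 array 3 of preSC and array 2 of L-Myc and C-Myc lie above the other arrays.

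The beta chains that pair with alpha V were chosen for description after their values were seen. Itgb3, which encodes beta 3, was at 6.91, 6.66 and 8.73 in preSC, 5.46 and 6.13 in L-Myc, 5.43 and 6.32 in C-Myc, with 5.44 and 6.00 in N-Myc. All transduced arrays were below all preSC arrays, but preSC 3 stood far above preSC 1 and 2, and the changes of -1.64, -1.56 and -1.71 were not called (limma adjusted p = 0.125, 0.108 and 0.0757). Its second probe set gave 0.06, 0.13 and 0.27. Itgb5, which encodes beta 5, was at 7.27, 7.06 and 8.11 in preSC and between 6.66 and 7.11 on the transduced arrays, with changes of -0.76, -0.54 and -0.38, none of them called. The third of its probe sets by brightness fell, with changes of -2.36, -1.75 and -1.63, and so did the fourth, with -1.75, -1.87 and -2.03, all called over the probe sets tested, so the probe sets of Itgb5 differ in the call and in size. The alpha V gene itself, Itgav, lies outside the symbol rule. It was at 10.30, 10.23 and 10.38 in preSC, 9.26 and 7.85 in L-Myc, 7.95 and 8.04 in C-Myc, with 7.65 and 8.09 in N-Myc, with no overlap. Itgav fell, with changes of -1.75 in L-Myc (SE 0.37, limma adjusted p = 0.0242), -2.31 in C-Myc and -2.43 in N-Myc, while its dimmer second probe set was 0.33, 0.31 and 0.30 higher and not called.

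Itgb8 followed single arrays rather than groups. It encodes beta 8, another partner of alpha V. Its values were 5.15, 5.44 and 7.86 in preSC, 4.16 and 7.06 in L-Myc, 3.32 and 6.75 in C-Myc, with 3.42 and 3.42 in N-Myc. The 3 high arrays were preSC 3, L-Myc 2 and C-Myc 2, and the gene passed the filter only through these and preSC 2. Over all probe sets, preSC 3 stood apart from preSC 1 and preSC 2, and L-Myc 2 and C-Myc 2 were closer to each other than to the other array of their group. The changes of -0.54, -1.11 and -2.73 had standard errors of 1.28 and none was called.

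**Figure D4:**
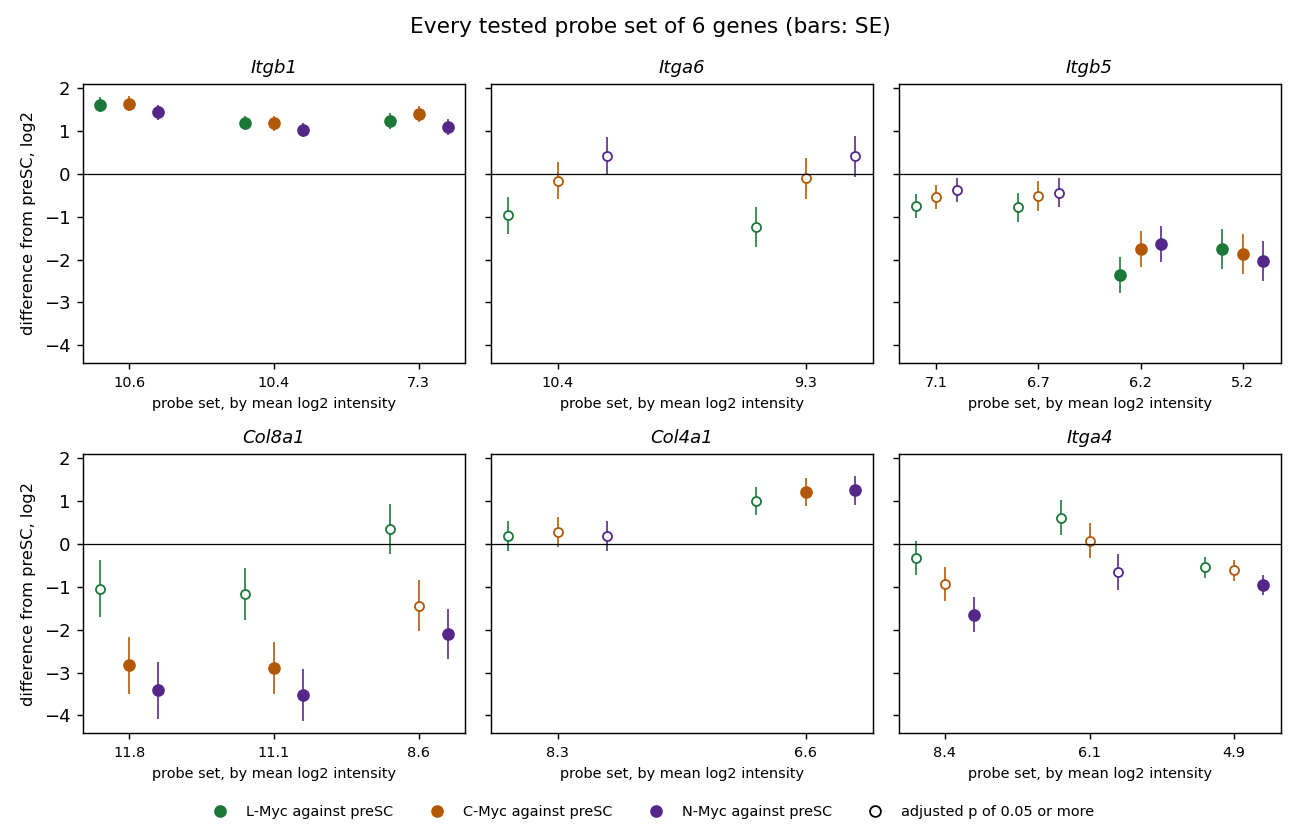
Change from preSC on the log2 scale for every tested probe set of 6 members, ordered along the axis by mean log2 intensity, with standard errors as bars and filled points where the adjusted p over all probe sets tested is under 0.05. The 3 tested probe sets of Itgb1 agree, while those of Itgb5, Col8a1, Col4a1 and Itga4 differ in the call.

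The matrix gene with the largest change was Col8a1, whose product forms networks in subendothelial and other specialised matrices. It was at 13.37, 13.45 and 13.38 in preSC, 12.74 and 11.96 in L-Myc, 9.27 and 11.88 in C-Myc, with 9.68 and 10.31 in N-Myc. On this brightest probe set all transduced arrays were below all preSC arrays, and C-Myc 2 lay close to L-Myc 2 rather than to C-Myc 1. The mean was 13.40 ± 0.04 in preSC, 12.35 ± 0.55 in L-Myc, 10.57 ± 1.85 in C-Myc and 9.99 ± 0.45 in N-Myc. Col8a1 fell by 2.83 in C-Myc (SE 0.67, 7.11-fold, limma adjusted p = 0.0237) and by 3.41 in N-Myc (10.6-fold, adjusted p = 0.0118). The change in L-Myc was -1.05 and was not called (adjusted p = 0.336). The second probe set fell by 2.89 in C-Myc and fell by 3.52 in N-Myc, and the third fell by 2.10 in N-Myc and was 1.44 lower in C-Myc without a call (a change of -1.44, adjusted p = 0.102). In L-Myc the change was -1.17 on the second and 0.34 on the third, neither called. The third was at 10.04 on L-Myc 1, above all preSC arrays, which were at 9.49, 9.36 and 8.99. The C-Myc change rests on which C-Myc array is used: it was -1.52 without C-Myc 1 and -4.14 without C-Myc 2. The C-Myc call was lost without preSC 1 or preSC 2 (adjusted p = 0.0653 and 0.07) and the N-Myc call without N-Myc 1 or N-Myc 2 (adjusted p = 0.0942 and 0.0668). Without C-Myc 1 or C-Myc 2, the L-Myc change of -1.05 was called, with adjusted p of 0.044 and 0.0437.

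The genes for the main type IV collagen trimer were measured by 1 probe set of Col4a2 and by more than 1 of Col4a1. Col4a1 and Col4a2 are neighbours on mouse chromosome 8 that are read in opposite directions, with annotated starts within 22 bases of each other in RefSeq on GRCm38.p6. Col4a2 was at 8.33, 8.08 and 8.75 in preSC, 7.65 and 7.23 in L-Myc, 7.85 and 7.30 in C-Myc, with 7.14 and 7.09 in N-Myc. All preSC arrays were above all transduced arrays. It fell by 0.95 in L-Myc (SE 0.25, 1.93-fold, limma adjusted p = 0.0489) and by 1.27 in N-Myc (2.42-fold, adjusted p = 0.0122). The change in C-Myc was -0.81 (adjusted p = 0.0566). The L-Myc call was held by 2 of the 9 fits that leave out 1 array, those without C-Myc 1 or C-Myc 2, and the N-Myc call was lost without either N-Myc array (adjusted p = 0.081 and 0.0836).

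Col4a1 was at 8.27, 8.20 and 8.06 in preSC, 8.75 and 7.98 in L-Myc, 9.04 and 7.88 in C-Myc, with 8.36 and 8.37 in N-Myc. The preSC range overlapped L-Myc and C-Myc, whose arrays 1 were high and arrays 2 low. Its changes were 0.19, 0.28 and 0.18 with a standard error of 0.35, and none was called. Its second probe set was at 5.86, 6.10 and 5.44 in preSC and between 6.46 and 7.53 on the transduced arrays, and it rose by 1.20 in C-Myc (adjusted p = 0.0302) and 1.24 in N-Myc (adjusted p = 0.0241), with 1.00 in L-Myc not called (adjusted p = 0.0688). The difference between the 2 genes was not tested.

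Among laminin chains, Lama4 fell. It encodes the laminin alpha 4 chain of vascular and other basement membranes. Its values were 5.61, 5.48 and 5.58 in preSC, 5.13 and 5.28 in L-Myc, 4.49 and 4.93 in C-Myc, with 5.03 and 5.06 in N-Myc. Only the preSC arrays were above the 40th percentile, so the gene was dim and passed the filter through the group in which it was high. It fell by 0.85 in C-Myc (SE 0.16, 1.8-fold, limma adjusted p = 0.0113) and by 0.51 in N-Myc (1.42-fold, adjusted p = 0.0476), and its change in L-Myc was -0.35 (adjusted p = 0.184). A gene that enters the test only through preSC had to be lower elsewhere, so these calls support nothing further. Both calls also stand in the fit with no filter on dim genes. The C-Myc call held in 9 of the 9 fits that leave out 1 array. The N-Myc call held in 2 of the 9 and was lost when the arrays were centred on the genes tested.

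The other laminin chains were not called in any comparison over all 9 arrays. Lamb2, the gene of the beta 2 chain, chosen after its values were seen, was at 5.90, 6.08 and 4.82 in preSC and between 4.95 and 5.25 on the transduced arrays, and without preSC 3 it was called in all 3 comparisons with preSC. It passed the filter only through preSC 1 and 2, so these calls support nothing further. Lamc1, which encodes the gamma 1 chain found in most laminins, was at 6.74, 6.64 and 7.51 in preSC, 7.17 and 7.16 in L-Myc, 7.76 and 7.15 in C-Myc, with 7.49 and 7.32 in N-Myc. It was higher on all transduced arrays than on preSC 1 and 2, while preSC 3 was above all of them except C-Myc 1, and its changes were 0.20, 0.49 and 0.44. Lama5, which encodes the alpha 5 chain of epithelial basement membranes, was at 6.86, 6.71 and 6.71 in preSC and between 6.86 and 7.31 on the transduced arrays (changes of 0.40, 0.21 and 0.24). Its second probe set gave -0.23, -0.30 and -0.05. Lama3, the gene of the alpha 3 chain that anchors epithelia, was at 5.46, 5.30 and 4.95 in preSC, 4.85 and 4.35 in L-Myc, 5.35 and 4.73 in C-Myc, with 5.45 and 5.43 in N-Myc. L-Myc and C-Myc 2 were below all preSC arrays, with changes of -0.64, -0.19 and 0.21.

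Among the other collagens, Col12a1, which encodes a collagen that attaches to fibrils, was at 6.66, 6.38 and 6.56 in preSC, 6.72 and 6.74 in L-Myc, 7.03 and 6.95 in C-Myc, with 6.89 and 6.88 in N-Myc. It rose by 0.46 in C-Myc (SE 0.13, 1.37-fold, limma adjusted p = 0.0399), and the call was lost in 9 of the 9 fits that leave out 1 array. Col11a1 and Col9a2, chain genes of cartilage collagens chosen after their values were seen, resembled Itgb8 in the arrays that were high. Col11a1 was at 4.06, 4.04 and 6.39 in preSC, 4.42 and 7.18 in L-Myc, 4.19 and 7.23 in C-Myc, with 4.25 and 4.17 in N-Myc, and its second probe set was likewise high on preSC 3, L-Myc 2 and C-Myc 2, at 5.83, 7.08 and 6.81, and between 3.08 and 3.24 on the others. Col9a2 was at 5.48, 5.06 and 8.06 in preSC, 4.78 and 7.32 in L-Myc, 4.81 and 6.11 in C-Myc, with 4.89 and 4.95 in N-Myc. Col11a1 passed the filter only through preSC 3, L-Myc 2 and C-Myc 2, and Col9a2 through these and preSC 1. None of the changes of Col11a1 and Col9a2 between groups was called. In both genes, the arrays of preSC, L-Myc and C-Myc differed widely within the group, and the N-Myc arrays did not. The same 3 arrays were high in the stromal marker Dcn, which encodes the matrix proteoglycan decorin, at 9.32, 10.32 and 9.69 against 5.29 to 6.86 on the others. They were low in another stromal marker, Thy1, at 3.97, 4.22 and 4.17 against 5.04 to 6.49. Pdgfrb, a marker of pericytes and fibroblasts, lay between 5.28 and 5.50 on all 9 arrays, and the mean of the 11 stromal markers was 5.36, 5.49 and 5.49 on the 3 arrays and 5.05 to 5.40 on the others. The part of such cells in these values was not tested.

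The results were recomputed without preSC 3, L-Myc 2 and C-Myc 2, a choice made after the values were seen. The L-Myc and C-Myc groups then hold 1 array each, whose spread is assumed to equal that of the remaining pairs of preSC 1 and 2 and N-Myc 1 and 2, and 2 residual degrees of freedom remain. Within these pairs the arrays were near-identical, differing by more than 2-fold at 47 and 13 probe sets. The calls of this fit therefore rest on a small spread. The number of integrins called became 5 in L-Myc, 5 in C-Myc and 4 in N-Myc of 11 tested, and that of collagens and laminins 7, 10 and 9 of 25. Over all 12720 genes tested 4247, 6569 and 7230 were called, a background of 33.4%, 51.6% and 56.8%, so the higher counts of members went with higher counts of all genes. Itgb1 was again higher in all 3 groups, by 1.69, 1.50 and 1.39. Itga6 was then lower in L-Myc, at -1.03, and higher in C-Myc, at 0.80, where the change over all arrays was -0.16. With preSC 1 and 2 averaged, and N-Myc 1 and 2 averaged, 0 members were called in any comparison, and over all genes 2, 2 and 0.

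The transduced groups were also compared with each other. With limma, 0 of 12976 genes were called in C-Myc against N-Myc, L-Myc against C-Myc or L-Myc against N-Myc, so that the background share was 0% in each. At an unadjusted p under 0.05, 541 (4.17%), 602 (4.64%) and 2432 (18.7%) genes passed, among them 0, 2 and 4 of the 44 tested members. Arrays did not overlap for 15, 12 and 23 members, which is 34.1%, 27.3% and 52.3% of them, where the background was 33.1%, 26% and 55.2%. The 2 in L-Myc against C-Myc were Col8a1, which was 1.78 higher in L-Myc (SE 0.74, unadjusted p = 0.0441), and Lama4, which was 0.50 higher (unadjusted p = 0.0219), both with a limma adjusted p of 0.83. The 4 in L-Myc against N-Myc were Col8a1 with a difference of 2.36, Itga4 with 1.32, Itga6 with -1.39 and Lama3 with -0.84 (unadjusted p from 0.0137 to 0.0204, adjusted p from 0.183 to 0.198). These counts rest on the C-Myc arrays. Without C-Myc 1, 421 genes (3.25%) were called in C-Myc against N-Myc and 1133 (8.75%) in L-Myc against N-Myc, and without C-Myc 2, 651 (5.04%) in L-Myc against C-Myc and 1139 (8.82%) in L-Myc against N-Myc. In both of these fits the members called in L-Myc against N-Myc were Col8a1, Itga4 and Itga6, and in L-Myc against C-Myc without C-Myc 2 they were Col8a1 and Itga6. With only the 2 groups in the fit, 241 genes (1.86%) and 0 members were called in L-Myc against N-Myc. A p that misses the threshold does not show that the groups are alike, since C-Myc 1 and C-Myc 2 differed by more than 2-fold in 7 members.

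The 3 proteins matched only by symbol bind integrin tails or were named for it. Itgb1bp1, which encodes ICAP1, a protein that binds the beta 1 tail, was at 8.90, 8.69 and 8.83 in preSC, 8.88 and 9.11 in L-Myc, 9.29 and 9.03 in C-Myc, with 9.23 and 9.34 in N-Myc. It rose by 0.48 in N-Myc (SE 0.15, 1.39-fold, limma adjusted p = 0.0467), a call that held in 2 of the 9 fits leaving out 1 array. Itgb1bp2, which encodes the muscle protein melusin, and Itgb3bp, which encodes a centromere protein, were not called in any comparison on the brightest probe set. The second probe set of Itgb3bp fell in all 3 groups, with a change of -1.18 in L-Myc and -0.80 in C-Myc (adjusted p = 0.0109, 0.0353 and, in N-Myc, 0.0141 over all probe sets tested by limma).

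Genes around the integrins were taken from lists written with earlier results of these data known. Of 23 tested focal adhesion genes, 1 rose and 4 fell in L-Myc, 1 rose and 5 fell in C-Myc, and 3 rose and 4 fell in N-Myc, with median changes of 0.14, 0.05 and 0.09. Among all genes tested, 5.44%, 9.91% and 12.5% rose and 8.03%, 13.6% and 16.4% fell. Ilk, the integrin-linked kinase gene, rose by 0.80, 0.73 and 0.88. Tns3, the gene of the adaptor tensin 3, fell, with changes of -1.24, -1.79 and -2.32, and so did its second probe set, with -0.77, -1.07 and -1.55. The actin-linking genes Vcl and Actn1 had probe sets that disagreed: the brightest probe set of Vcl fell (changes of -1.10, -1.36 and -1.38) and the second rose by 1.36, 1.06 and 0.68. Actn1 fell on the brightest (changes of -1.78, -1.68 and -1.28) and was 0.10, 0.10 and 0.62 higher, not called, on the second.

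Basement membrane genes other than collagens and laminins were called only downwards among those tested. Of 15 tested, 5 fell in each of the 3 groups and 0 rose, with median changes of -0.68, -1.20 and -0.86, beside -0.04, -0.05 and -0.03 over all genes tested. Of all genes tested, 8.03%, 13.6% and 16.4% fell, and the list was written with earlier results known. Fras1, which encodes a protein that anchors epithelia to the basement membrane, was at 10.13, 9.99 and 10.04 in preSC and between 7.81 and 8.33 on the transduced arrays, and fell, with changes of -1.98 in L-Myc (SE 0.18, limma adjusted p = 0.00307), -1.96 in C-Myc and -2.09 in N-Myc. Its partner gene Frem2 also fell, with changes of -2.53, -2.06 and -1.80. Dag1, the gene of dystroglycan, a laminin receptor, was at 10.29, 10.21 and 10.09 in preSC and between 8.26 and 9.35 on the transduced arrays, and fell, with changes of -1.32, -1.89 and -1.73. All 4 of its probe sets fell in each group. Smoc2, which encodes a calcium-binding matrix protein, fell by 3.67 in L-Myc and fell by 2.99 in C-Myc, and its change in N-Myc was -0.86 and not called. Its second probe set disagreed in part, with changes of -0.57 and -0.35 that were not called and a rise of 0.74 in N-Myc. The mean over the 16 basement membrane genes of this list, 1 of them not tested, was 7.58 to 7.67 in preSC and 6.58 to 6.88 on the transduced arrays. The mean of the epithelial markers given above was also lower on all transduced arrays, at 8.48 to 10.81 against 11.13 to 11.98. The part of the epithelial levels in these falls was not tested.

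Of 9 tested laminin and collagen receptors other than integrins, 4 fell and 0 rose in L-Myc, 4 fell and 1 rose in C-Myc, and 5 fell and 1 rose in N-Myc. Dag1 is counted in this list as well. Among all genes tested, 5.44%, 9.91% and 12.5% rose and 8.03%, 13.6% and 16.4% fell, the background for this list and for the ligands below. Cd44, the gene of a hyaluronan and matrix receptor, is among those counted, but it was at 5.94, 5.95 and 5.13 in preSC and between 3.95 and 4.25 on the transduced arrays, so it passed the filter only through preSC 1 and 2. Sdc2, a syndecan gene, fell by 2.49 in N-Myc. Of 9 tested genes of other integrin ligands, 0, 0 and 1 rose and 1, 2 and 2 fell. Jag1, best known as a Notch ligand, fell, with changes of -2.48, -2.17 and -1.93. Edil3, whose product binds alpha V integrins, fell by 2.80 in C-Myc and fell by 3.20 in N-Myc, and Mfge8, whose product binds alpha V with beta 3 or beta 5, rose by 2.43 in N-Myc.

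Of 17 tested genes of collagen synthesis and crosslinking, 1, 2 and 2 rose and 0, 0 and 2 fell. The background for this list and for the proteases below was again 5.44%, 9.91% and 12.5% risen and 8.03%, 13.6% and 16.4% fallen. Colgalt1, which encodes an enzyme that adds galactose to collagen, rose by 0.72, 0.78 and 0.70, and its second probe set rose by 1.07, 1.06 and 1.06. In N-Myc, P4ha2, a collagen prolyl hydroxylase subunit gene, fell by 1.20 and the crosslinking enzyme gene Lox rose by 0.83. Lox was dim, at 5.24, 4.80 and 4.94 in preSC and 5.56 and 6.09 in N-Myc. It passed the filter only through N-Myc and C-Myc 1, so its call supports nothing further. Its second probe set was 0.35 higher in N-Myc and not called. Of 15 tested matrix proteases and inhibitors, 0, 1 and 0 rose and 0, 2 and 3 fell. Adamts5, a proteoglycan-cleaving protease gene, fell by 3.86 in N-Myc, and Timp2, an inhibitor of metalloproteases, fell by 1.78 in C-Myc and fell by 1.89 in N-Myc, although 1 of its other tested probe sets rose in L-Myc, by 1.65. Of 4 tested genes of a mesenchymal state, 0 were called in any comparison with preSC.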

How the data were processed

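The deposited values are log2 intensities, 1 for each probe set of an array. The authors used RMA, affy and R 3.0.1, per the submitters' processing notes. The affy version was not given in the sources used here. RMA forces the arrays to a common distribution, so a shift of all transcripts would be lost, and it compresses differences of dim probe sets. Array medians lay between 6.02 and 6.07, and no further scaling was applied. Precision is limited by the number of arrays.

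Groups and replicate numbers came from the sample titles. Of 45101 probe sets, 34945 were named to 1 gene through the platform annotation. The brightest probe set by mean over the 9 arrays stood for each of 18193 genes, so levels of different genes were not compared. Genes above the 40th percentile of their array on at least 2 arrays were tested, which left 12976. Group means were fitted with limma 3.58.1 in R 4.3.3 (lmFit and eBayes) to all 9 arrays, with no covariate and 5 residual degrees of freedom, and p-values were adjusted over all genes tested by the Benjamini-Hochberg method. A second fit over all probe sets tested the dimmer ones. The procedure was tested on simulated data with known changes. Every member called in any comparison could be named, a set of epithelial integrin, collagen and laminin genes was named whatever its values, and up to 3 of the largest changes were named from each list. The members and lists were chosen with earlier results of these data known. The alternatives were other probe sets, filters, scalings and fits, a replicate block and leaving out arrays.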

Additional observations from a re-analysis of the deposited data

How the results depend on the processing

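The labels give the groups shared replicate numbers but no shared source. The correlation of the difference between replicates 1 and 2 was 0.00 to 0.11 between groups, except 0.42 between L-Myc and C-Myc, so the numbers were not taken to pair the arrays. With a replicate block, 1033, 2389 and 2845 of all genes were called against preSC in the order L-Myc, C-Myc, N-Myc, where 1748, 3049 and 3741 were called without it, and 5 of the 12 called changes of members were no longer called, among them Col4a2 in L-Myc at -0.77 and Col8a1 in C-Myc at -2.84. The block also added calls, for Lamb2 in all 3 comparisons with preSC, for Lamc1 in C-Myc at 0.76 and N-Myc at 0.71, and for Itgb3 in N-Myc at -1.07. Lamb2 passed the filter only through preSC 1 and 2, so its calls support nothing further. On leaving out 1 array at a time, the number of integrins called was 1 to 2 in each comparison with preSC, that of collagens and laminins was 0 to 2 in L-Myc, 1 to 3 in C-Myc and 0 to 4 in N-Myc, and that of all members was 0 to 0 in C-Myc against N-Myc, 0 to 2 in L-Myc against C-Myc and 0 to 3 in L-Myc against N-Myc, where up to 3.25%, 5.04% and 8.82% of all genes were called. With near-identical arrays averaged, integrins and matrix genes called were 0 in all 3 comparisons with preSC, which leaves 3 residual degrees of freedom. With preSC 3, L-Myc 2 and C-Myc 2 left out together, an alternative chosen after seeing the data, integrins called were 5 in L-Myc, 5 in C-Myc and 4 in N-Myc, matrix genes called were 7, 10 and 9, and Itga6 in C-Myc reversed to 0.80. Integrins called in L-Myc were 2 with the mean of probe sets, where 14.1% of all genes were called. In N-Myc they were 1 with that mean (28.6% of all genes) or with the second-brightest probe set (40.3%). Matrix genes called in L-Myc were 0 with the second-brightest probe set (28.4% of all genes), with centred arrays (14.2%), with a trended robust eBayes fit (13.9%) and with only the 2 groups compared (11%). In C-Myc they were 1 with the mean of probe sets (23.2% of all genes) and 1 with only the 2 groups compared (14.1%). In N-Myc they were 5 with centred arrays (32.2%) and 5 after quantile normalization again (29.3%). Without the filter on dim genes, Col6a3 was called in L-Myc and Col26a1 in C-Myc and N-Myc, neither of which was tested otherwise. Over all changes of named members and alternatives, 1032 values kept their direction and their side of the threshold, 67 lost the call, 35 gained it, 1 reversed, and 44 others that were never called changed sign. The cause was not tested.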
